A study of Mus musculus with 6 samples.

Results

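The genes described here encode the chaperones of the endoplasmic reticulum and the components of the unfolded protein response. They were the 36 listed genes whose symbol stood alone on at least 1 probe set of the platform annotation, and all 36 of the 36 symbols were found, of 18193 genes in all. They are read by 87 of 45037 probe sets, 10 of them by 1 probe set each and 26 by several. The rule itself reads only the symbol, but the symbols were put together with the differences between these arrays already known. Every value and adjusted p below is therefore a description of the arrays, and no test of the list was made.

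The samples were bone marrow of adult female F1 mice from 2 outcrosses with the FVB/NJ strain, read on 6 Affymetrix arrays to compare basal expression. The AKR F1 group (3 arrays) had an AKR/J parent and the DBA F1 group (3 arrays) a DBA/2J parent, so every animal carries 1 FVB/NJ genome and the groups differ in the other one. The title of the series gives the second cross as FVB without the substrain. The labels give no treatment beside the anaesthesia at collection, no exact age and no statement on pooling or on the animal behind each array. The adjusted p-values then measure only how far these samples spread, which may be technical. A difference is the AKR F1 mean less the DBA F1 mean of log2 values, its SE is the standard error from limma, and each gene is represented by its brightest probe set unless another is named. A difference is called past the threshold when its Benjamini-Hochberg adjusted p over all genes is under 0.05 in limma.

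The endoplasmic reticulum folds proteins that enter the secretory pathway. Chaperones hold the unfolded chains, disulfide isomerases join their cysteines, and chains that fail are sent back to the cytosol and destroyed by the proteasome, which is called ER-associated degradation. When unfolded chains build up, the sensors IRE1 (Ern1), PERK (Eif2ak3) and ATF6 slow translation and raise the transcription of the chaperone genes. In marrow these genes are known above all from antibody-secreting plasma cells, whose development needs Xbp1, and from granulocyte precursors, which load granules with secretory proteins.

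The arrays had medians from 5.14 to 5.19 and lower quartiles from 3.68 to 3.75 (log2 values), and with 3 arrays in a group the precision is limited. The 11 marker lists covered marrow lineages, stroma and bone, skeletal muscle and proliferation. Of these lists 10 had no measured member at or below the lower quartile, the exception being Hba-a1 in the list of red cell precursors. A value above that quartile does not by itself show that a marker was expressed. Control probe sets differed too. The hybridization controls had a mean of 10.41 to 10.61 in AKR F1 and 10.96 to 11.33 in DBA F1. The 3' minus 5' index, a measure of how complete the labelled transcripts are, was 1.25, 2.03 and 1.80 on the AKR F1 arrays (replicates 1 to 3) against 1.23, 1.09 and 1.03 on the DBA F1 arrays. Skeletal muscle markers lay higher in DBA F1, with list means of 8.87 to 11.76 against 6.94 to 8.11. Their part in the results below was not tested, except where a control measure entered the fit.

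The genes did not move as a block. At their brightest probe set 8 rose in AKR F1 relative to DBA F1, 2 fell and 26 did not pass. Those higher were Sdf2l1, Pdia4, Ppp1r15a, Creld2, Edem2, Edem1, Sel1l and Canx, and those lower were Pdia3 and Edem3. The 10 make up 27.8% of the 36, where 15.2% of all genes passed (9.2% higher and 6.04% lower). Genes with bright probe sets passed more often, and 35 of the 36 lay above the median probe set, where 22.3% of 11549 genes passed (13.4% higher and 8.97% lower). The median difference was 0.10, against 0.06 over all genes, and the range ran from -0.65 to 1.59. In 18 of the 36 the groups did not overlap, 10 with AKR F1 above and 8 with DBA F1 above. The same held for 36.7% of all genes (23.0% and 13.7%) and for 47.3% of those above the median probe set (28.1% and 19.2%). With the 3' minus 5' index as a covariate 1 of the 10, Sdf2l1, still passed in limma. With the hybridization controls none did (6 of the 36 at an unadjusted p under 0.05). The share of all genes under that unadjusted cut in the same fit was not taken. Calls were lost among all genes as well, with 21 and 1 of them past the threshold in these fits, against 2771 in the main fit. All 10 kept their sign in both fits, but sizes moved by more than 1.5 times in some: with the hybridization controls Canx differed by 0.66, Creld2 by 1.13 and Ppp1r15a by 1.13, and Pdia3 moved in both. The standard errors of the 10 rose to a median of 1.66 and 2.49 times. Without AKR F1 replicates 1, 2 and 3 in turn 4, 2 and 2 of the 36 passed, beside 1396, 685 and 793 of all genes. Without DBA F1 replicates 1, 2 and 3 the counts were 10, 7 and 7, beside 3248, 1585 and 2147 of all genes.

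**Figure D1:**
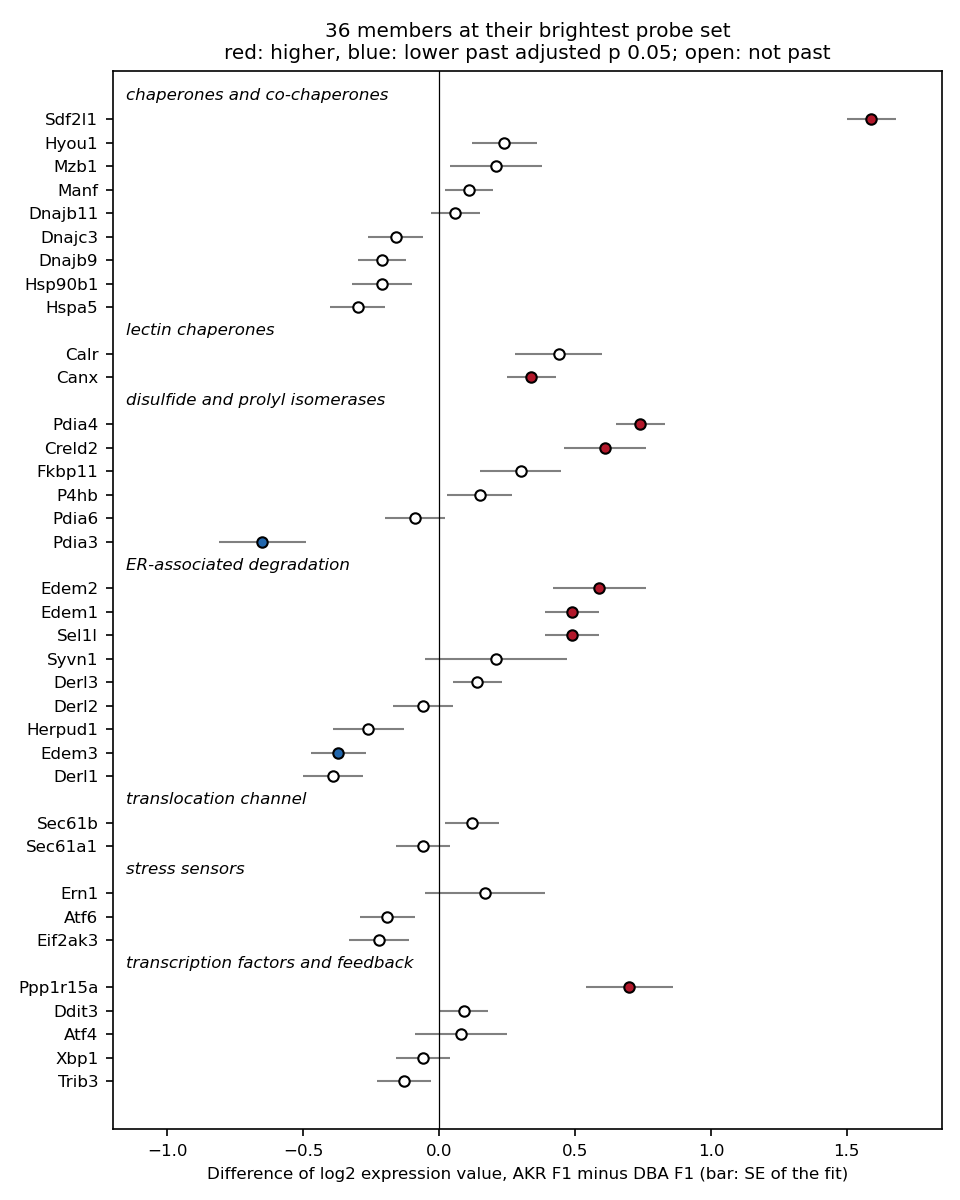
Difference of the log2 expression value, AKR F1 minus DBA F1, for each of the 36 genes at its brightest probe set, grouped by role. Points are the estimates and bars the SE of the fit, and filled points are the 8 higher (red) and 2 lower (blue) past the threshold. Sdf2l1 stands alone at 1.59, and every role with more than 3 genes has points on both sides of 0.

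Transcription of many of these genes rests on the ER stress response element, which holds a CCAAT box and a CCACG box set 9 bases apart and is bound by NF-Y and ATF6 or XBP1. The RefSeq promoter table of GRCm38.p6, with 250 bases before and 50 after each start, has 30 of the 36 genes. The exact letters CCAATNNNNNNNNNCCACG were searched on both strands, and 9 of the 30 genes had them (30.0%), against 0.137% of 27025 genes: Hspa5, Hsp90b1, Dnajc3, Pdia6, Calr, Canx, Creld2, Derl3 and Syvn1. Single CCAAT and CCACG boxes, which the element contains, were each in 24 of the 30 (80.0%), against 41.1% and 35.5% of all genes, 42.0% and 45.9% of genes on the array, and 51.1% and 65.6% of the other pathway genes. The second form of the element, in which ATTGG and CCACG stand 1 base apart, was in Herpud1 and Dnajb11, 6.67% against 0.0444%. The match in Herpud1 begins 52 bases before the start, while that in Dnajb11 lies after the start. No promoter of the 30 held TGACGTGG, the core of a site bound by XBP1, which 0.714% of all genes hold. At so low a share, none among 30 genes says little. Of 90 other pathway genes 1.11% held each form of the element and 4.44% the XBP1 core. A match is a description of letters and not of binding.

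The next 6 stretches are shown because they carry the same element while the means of their genes differed in both directions, past the threshold in Creld2 and Canx and not in the other 4. Each is read 5′ to 3′ along the gene's strand in GRCm38.p6, and the capitals mark the CCAAT and CCACG boxes, which read ATTGG and CGTGG where the element lies on the opposite strand. The first 3 belong to genes whose AKR F1 mean was the higher and the last 3 to genes whose DBA F1 mean was the higher.
Creld2, chr15:88819505-88819553, + strand: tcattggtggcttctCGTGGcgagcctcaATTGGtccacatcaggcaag
Canx, chr11:50325785-50325833, - strand: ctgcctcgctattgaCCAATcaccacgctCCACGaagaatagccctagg
Calr, chr8:84847060-84847108, - strand: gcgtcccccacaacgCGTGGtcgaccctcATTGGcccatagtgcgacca
Hspa5, chr2:34772010-34772058, + strand: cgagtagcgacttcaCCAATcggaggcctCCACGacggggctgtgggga
Hsp90b1, chr10:86705518-86705566, - strand: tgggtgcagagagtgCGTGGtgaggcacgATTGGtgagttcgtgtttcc
Dnajc3, chr14:118937812-118937860, + strand: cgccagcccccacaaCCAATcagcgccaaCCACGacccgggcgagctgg

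The element of Hspa5 begins 65 bases before the start, that of Creld2 126 and that of Calr 162, and Hsp90b1 has a second one 212 bases before. Of the 9 genes with the element 2 passed the threshold, Creld2 and Canx, both higher in AKR F1, and 7 did not (22.2% called, about the 22.3% of genes above the median probe set, where all 9 lie). Their median difference was 0.14, with 5 above 0 and 4 below.

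Sdf2l1 had the largest difference. It encodes a lumenal protein that works with the Hsp70 chaperone BiP and its J-domain partner ERdj3. AKR F1 replicates 1 to 3 were at 8.43, 8.51 and 8.52, and DBA F1 replicates 1 to 3 at 6.80, 7.02 and 6.86, and all values below follow that order. The groups lay far apart and each was tight, with a mean of 8.49 ± 0.05 against 6.89 ± 0.12 (SD, n = 3 each). The difference was 1.59 (SE 0.09), which is 3.02-fold (adjusted p = 0.00024 in limma). It passed whichever of the 6 arrays was left out, at differences of 1.55 to 1.66. Only 1 probe set reads Sdf2l1, and strain variants under its probes or those of the other genes were not analysed here. The 250 bases before its start (chr16:17132384-17132633, - strand, GRCm38.p6) are shown because this gene moved most. They hold 3 CCAAT and 3 CCACG boxes, counted on both strands and in capitals here, none of them spaced as in the element.
Sdf2l1: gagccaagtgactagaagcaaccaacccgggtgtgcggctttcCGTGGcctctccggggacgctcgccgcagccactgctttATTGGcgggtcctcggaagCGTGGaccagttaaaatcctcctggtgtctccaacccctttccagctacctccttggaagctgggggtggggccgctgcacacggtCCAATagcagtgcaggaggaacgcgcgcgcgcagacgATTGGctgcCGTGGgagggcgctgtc

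The other 8 chaperones and co-chaperones did not pass at their brightest probe set. Hspa5, which encodes BiP, the main lumenal Hsp70 and the classic reporter of the response, was at 11.94, 11.88 and 11.70 in AKR F1 and 12.07, 12.25 and 12.10 in DBA F1. Every DBA F1 array lay above every AKR F1 array, but the difference of -0.30 (SE 0.10) had an adjusted p of 0.083 in limma. A second, dimmer probe set was at 10.50, 10.27 and 10.22 against 10.68, 10.94 and 10.73. It passed the test over all probe sets, where 6.73% were lower, at -0.45 (SE 0.11, adjusted p = 0.040 in limma). It did not pass without AKR F1 replicate 2 or 3 or DBA F1 replicate 2 or 3 (adjusted p of 0.13, 0.14, 0.12 and 0.065 in limma). The third probe set of Hspa5 differed by 0.08.

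Hsp90b1, the gene of the Hsp90 chaperone GRP94, showed the widest gap between its probe sets. Its brighter one was at 10.96, 11.09 and 11.12 in AKR F1 and 11.24, 11.44 and 11.13 in DBA F1, a difference of -0.21 that did not pass (adjusted p = 0.21 in limma). The dimmer one was at 9.36, 8.33 and 8.79 in AKR F1 against 10.39, 10.37 and 10.38 in DBA F1. Here the DBA F1 arrays were almost identical and the AKR F1 arrays spread over a full log2 unit, with replicate 1 nearest to DBA F1. This difference of -1.55 (SE 0.22), or 2.93-fold higher in DBA F1, passed over all probe sets (adjusted p = 0.0065 in limma) and whichever array was left out. Replicate 1 is also the AKR F1 array whose 3' minus 5' index (1.25) was nearest to those of DBA F1, and the part of that index in this difference was not tested.

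Dnajc3, which encodes the co-chaperone P58IPK, had 5 probe sets, every one with a smaller AKR F1 mean. The brightest differed by -0.16 and did not pass, and the differences at the others were -0.47, -0.12, -0.61 and -0.59. The one at -0.59 held 4.80, 4.76 and 4.76 in AKR F1 and 5.28, 5.44 and 5.37 in DBA F1 (adjusted p = 0.0070 in limma), and it passed whichever of the 6 arrays was left out. The one at -0.47 held 7.92, 7.58 and 7.65 against 8.22, 8.20 and 8.14, and the one at -0.61 held 6.85, 6.64 and 6.70 against 7.40, 7.42 and 7.20. Both passed (adjusted p of 0.028 and 0.010 in limma), in 2 and 5 of the 6 fits with 1 array left out. Without AKR F1 replicate 3 their adjusted p-values were 0.11 and 0.052 in limma, and the first was also lost without AKR F1 replicate 2 (0.11) and DBA F1 replicates 1 and 2 (0.057 and 0.081).

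None of the remaining co-chaperones passed at any probe set. At the brightest probe set the groups did not overlap in Dnajb9 (DBA F1 above) and Manf (AKR F1 above). They overlapped in Hyou1, Dnajb11 and Mzb1. Hyou1, the large Hsp70-like nucleotide exchange factor of BiP, differed by 0.24 (SE 0.12), with 0.45 and 0.18 at its dimmer probe sets. The J-domain proteins Dnajb9 and Dnajb11 differed by -0.21 and 0.06, and Manf, a secreted stress protein that binds BiP, by 0.11 with AKR F1 values of 9.62, 9.64 and 9.62. Mzb1, a co-chaperone of GRP94 in B cells and plasma cells, was at 9.67, 10.37 and 10.21 in AKR F1 and 9.79, 9.88 and 9.94 in DBA F1, so that AKR F1 held both the lowest and the highest value. Its difference of 0.21 (SE 0.17) did not pass.

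The lectin chaperones both had the higher mean in AKR F1. Canx, which encodes calnexin, was at 11.41, 11.45 and 11.48 against 10.98, 11.23 and 11.11, differing by 0.34 (SE 0.09, adjusted p = 0.043 in limma). The groups did not overlap, yet the call was lost when any 1 of the 6 arrays was left out (adjusted p from 0.050 to 0.14 in limma), and the same probe set had 0.051 over all probe sets. Calr, which encodes calreticulin, was at 12.41, 12.63 and 12.36 against 12.33, 12.07 and 11.67. Its difference of 0.44 (SE 0.16) did not pass (adjusted p = 0.11 in limma). The DBA F1 arrays decided its size: it was 0.26 (adjusted p = 0.20 in limma) without DBA F1 replicate 3, and 0.60, past the threshold (adjusted p = 0.026 in limma), without DBA F1 replicate 1. Its 3 probe sets differed by 0.44, 0.47 and 0.56, the narrowest span of the genes here with 3 or more probe sets.

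Of the 6 disulfide and prolyl isomerases 2 rose, 1 fell and 3 did not pass (50.0% called, against the same 22.3%). Pdia4, which encodes the isomerase ERp72, was at 7.60, 7.50 and 7.42 in AKR F1 and 6.79, 6.83 and 6.67 in DBA F1, differing by 0.74 (SE 0.09, 1.67-fold, adjusted p = 0.0041 in limma). It passed whichever of the 6 arrays was left out. Pdia3, the gene of the isomerase ERp57 that works with calnexin and calreticulin, went the other way, at 10.78, 10.16 and 10.29 against 11.16, 11.06 and 10.98. The difference of -0.65 (SE 0.16, 1.57-fold higher in DBA F1, adjusted p = 0.027 in limma) was lost without AKR F1 replicate 2 or 3 (0.10 each) or DBA F1 replicate 2 (0.070). Again AKR F1 replicate 1 lay nearest to DBA F1. With the 3' minus 5' index as a covariate Pdia3 differed by -0.24 (SE 0.18, adjusted p = 0.57 in limma), and with the hybridization controls by -1.07 (SE 0.38, adjusted p = 0.43 in limma).

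Creld2, whose product has isomerase activity and is released from stressed cells, was at 8.61, 8.83 and 8.50 in AKR F1 and 7.98, 8.33 and 7.80 in DBA F1. The groups did not overlap, and the difference of 0.61 (SE 0.15, 1.52-fold) had an adjusted p of 0.030 in limma. It did not pass without AKR F1 replicate 1, 2 or 3 (0.078, 0.11 and 0.068) or DBA F1 replicate 3 (0.065). P4hb, the founding protein disulfide isomerase, differed by 0.15 and Pdia6 by -0.09, and the prolyl isomerase gene Fkbp11 by 0.30, none past the threshold.

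**Figure D2:**
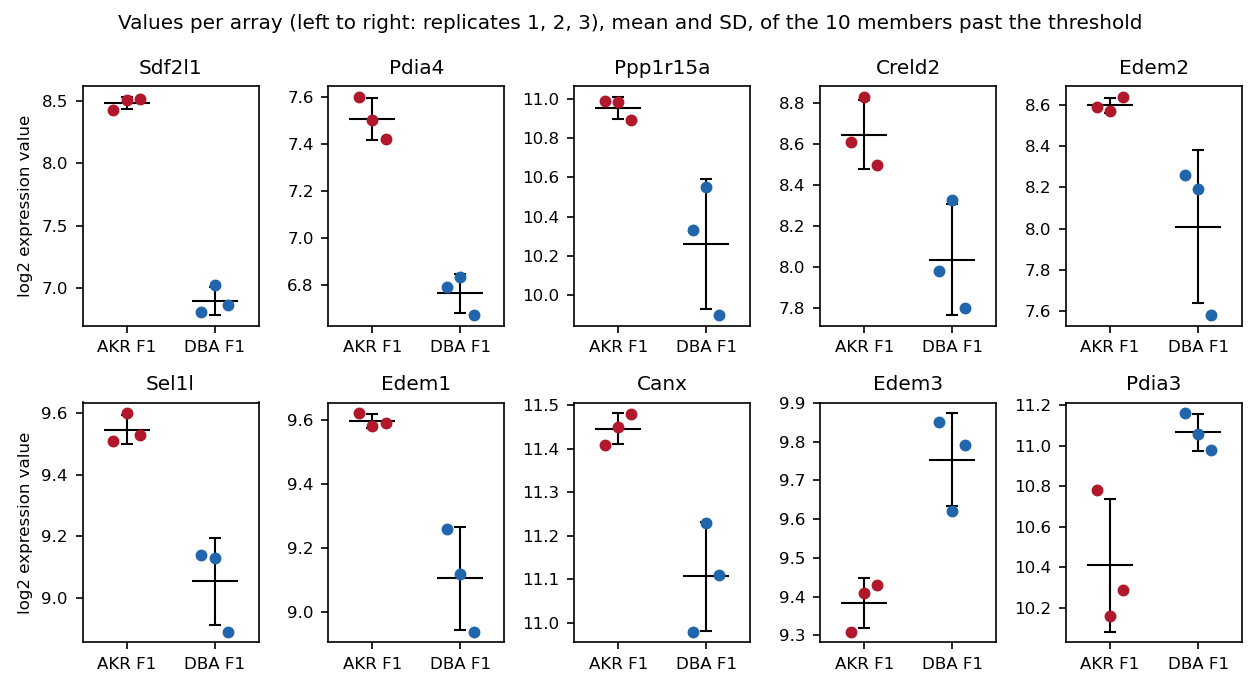
Log2 expression value in each array for the 10 genes past the threshold at their brightest probe set, with AKR F1 in red and DBA F1 in blue. Horizontal lines are group means and error bars SDs (n = 3 each), and each panel has its own vertical axis. The groups do not overlap in any panel, and DBA F1 replicate 3 (right-hand blue point) is the lowest of its group in Ppp1r15a at 9.90 and in Edem2 at 7.58.

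Of 9 genes of ER-associated degradation 3 were higher, 1 was lower and 5 did not pass (44.4% called, where 22.3% of genes above the median probe set passed). The products of Edem1, Edem2 and Edem3 trim mannose from misfolded glycoproteins and so mark them for removal. Edem1 was at 9.62, 9.58 and 9.59 in AKR F1 and 9.26, 9.12 and 8.94 in DBA F1, and the very even AKR F1 arrays lay above all of DBA F1. Its difference was 0.49 (SE 0.10, 1.41-fold, adjusted p = 0.018 in limma). It did not pass without AKR F1 replicate 1, 2 or 3 (0.058, 0.069 and 0.071), and its second probe set had a mean of 8.57 in both groups.

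Edem2 was at 8.59, 8.57 and 8.64 against 8.26, 8.19 and 7.58. This difference of 0.59 (SE 0.17, adjusted p = 0.049 in limma) was the nearest to the threshold among those past it, and the low DBA F1 replicate 3 set much of its size. Without that array the difference was 0.37. It was lost without AKR F1 replicate 1, 2 or 3 or DBA F1 replicate 2 (0.12, 0.13, 0.14 and 0.066). Edem3 went against the other 2 Edem genes, at 9.31, 9.41 and 9.43 in AKR F1 and 9.85, 9.62 and 9.79 in DBA F1. Its difference was -0.37 (SE 0.10, adjusted p = 0.037 in limma), and with 1 array left out it passed only without DBA F1 replicate 2 (0.11, 0.10 and 0.097 without AKR F1 replicates 1 to 3, and 0.071 and 0.070 without DBA F1 replicates 1 and 3). The dimmer probe set of Edem3 fell further, at 6.53, 6.89 and 6.68 against 7.65, 7.53 and 7.99, differing by -1.02 (SE 0.14, adjusted p = 0.0063 in limma). That call held whichever array was left out.

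Sel1l encodes the scaffold of the ubiquitin ligase complex through which misfolded chains leave. Its brightest probe set was at 9.51, 9.60 and 9.53 in AKR F1 and 9.14, 9.13 and 8.89 in DBA F1, differing by 0.49 (SE 0.10, adjusted p = 0.016 in limma). The call was lost without AKR F1 replicate 2 or 3 (0.073 and 0.064). The 4 dimmer probe sets disagreed in sign, at 0.27, -0.10, -0.56 and -0.14, and none of them passed. The mean of all 5 differed by -0.01, so the direction of Sel1l depends on the probe set that is read.

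Syvn1, the ligase HRD1 that Sel1l holds, differed by 0.21 (SE 0.26) with wide spread in DBA F1 (9.76, 9.32 and 8.65). Derl1, a channel component, was at 10.83, 11.02 and 10.98 against 11.13, 11.39 and 11.48, a difference of -0.39 that lay just outside the threshold (adjusted p = 0.052 in limma), and its other probe sets differed by 0.13, -0.14 and 0.06. Derl2 and Derl3 differed by -0.06 and 0.14. Herpud1, a membrane protein that recruits the complex and a strong target of the response, differed by -0.26 (SE 0.13), and its second probe set by -0.19. Both genes of the Sec61 channel, through which chains enter, did not pass: Sec61a1 differed by -0.06 and Sec61b by 0.12 (0 of 2 in limma, and 0 of 2 also at an unadjusted p under 0.05). Under that unadjusted cut lay 4913 of 11549 genes above the median probe set, and none among 2 genes says little. Of the 6 probe sets of Sec61a1 the second brightest had the widest difference, at 9.75, 9.88 and 9.79 against 9.53, 9.52 and 9.14, and its 0.41 did not pass either (adjusted p = 0.065 in limma).

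The 3 sensors did not pass in limma either, 0 of 3 also at an unadjusted p under 0.05. Under that cut lay 4913 of 11549 genes above the median probe set, and none among 3 genes says little. Ern1 differed by 0.17 (SE 0.22), Eif2ak3 by -0.22 (SE 0.11) and Atf6 by -0.19 (SE 0.10). In Atf6 and Eif2ak3 every DBA F1 array lay above every AKR F1 array. The values of Eif2ak3 were 8.66, 8.87 and 8.90 against 9.17, 8.97 and 8.95, while its 2 dimmer probe sets had the opposite sign, at 0.19 and 0.41, and did not pass. Those of Atf6 were 7.61, 7.87 and 7.87 against 8.01, 7.94 and 7.98.

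Of the transcription factors, Xbp1, which the sensor IRE1 activates by splicing, had nearly equal levels, at 11.08, 11.06 and 10.91 in AKR F1 and 11.13, 11.16 and 10.93 in DBA F1. The difference was -0.06 (SE 0.10), and the 3 dimmer probe sets differed by -0.25, -0.24 and 0.08. Spliced and unspliced forms were not told apart here. Atf4, translated when PERK slows other translation, was at 10.97, 10.48 and 10.41 against 10.77, 10.52 and 10.35, a difference of 0.08 with overlapping groups. One dimmer probe set of Atf4, of the kind that can read related sequences (suffix x), was at 8.45, 8.10 and 7.83 against 8.62, 9.03 and 8.80. It differed by -0.69 (SE 0.17, adjusted p = 0.034 in limma) and did not pass without AKR F1 replicate 2 or 3 (0.11 each) or DBA F1 replicate 2 or 3 (0.10 and 0.071). Ddit3, the gene of the pro-apoptotic factor CHOP, was at 8.34, 8.36 and 8.41 against 8.15, 8.34 and 8.35, differing by 0.09 (SE 0.09). Trib3, a pseudokinase gene induced by ATF4 and CHOP, was the only one of the 36 below the median probe set, at 4.24 ± 0.09 and 4.37 ± 0.10 (SD, n = 3 each).

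Ppp1r15a, which encodes GADD34, the phosphatase subunit that restarts translation after PERK has slowed it, was the exception in this group. It was at 10.99, 10.98 and 10.89 in AKR F1 and 10.33, 10.55 and 9.90 in DBA F1. The AKR F1 arrays were tight and high, and the difference of 0.70 (SE 0.16, 1.62-fold) had an adjusted p of 0.022 in limma. It did not pass without AKR F1 replicate 1, 2 or 3 (0.073, 0.084 and 0.072). Without DBA F1 replicate 3 it was 0.51.

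**Figure D3:**
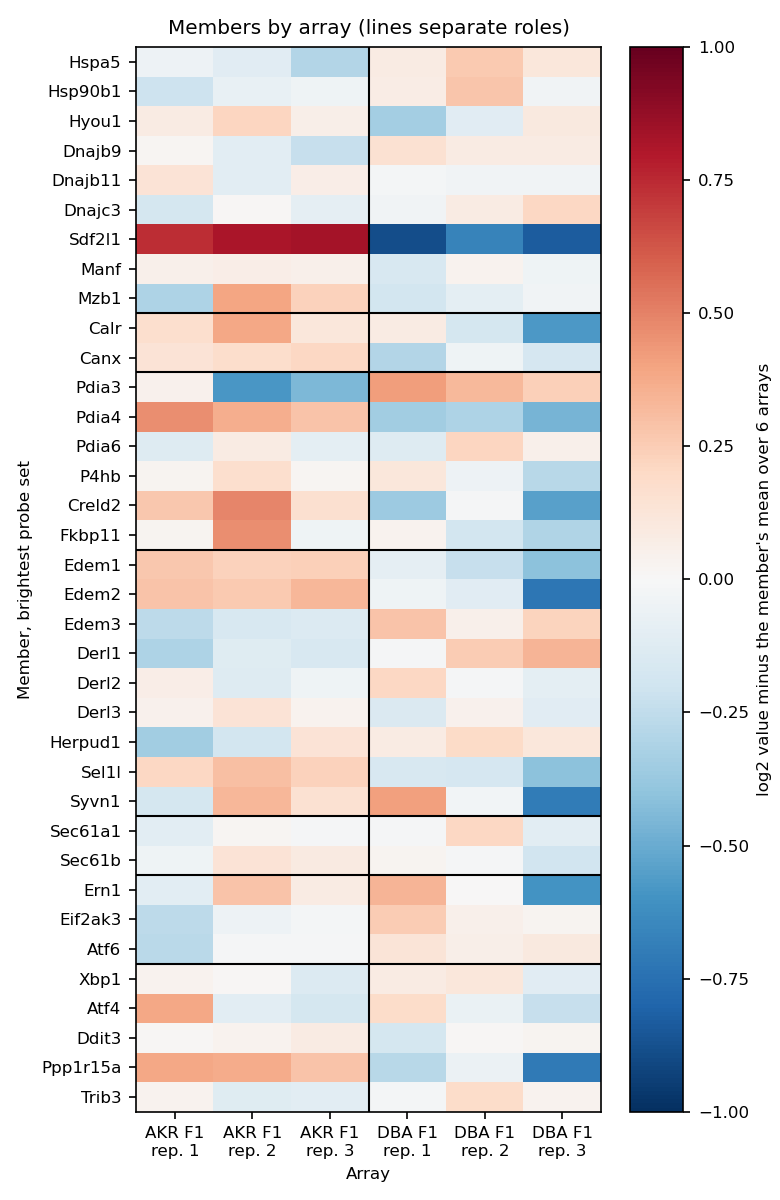
Log2 value of each gene in each array minus that gene's mean over the 6 arrays, brightest probe set, with horizontal lines between roles and a vertical line between the crosses. Sdf2l1 is the strongest row, and within DBA F1 replicate 3 has the lowest cell in Edem2, Syvn1, Ern1, Calr and Ppp1r15a.

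The arrays of a cross were not equally alike. DBA F1 replicate 3 held the lowest of the 3 DBA F1 values in 20 of the 36 genes (55.6%), against 47.0% of the genes above the median probe set, and AKR F1 replicate 1 the lowest of its group in 18 (50.0%), against 43.9%. The SD was larger in DBA F1 in 25 of the 36, or 69.4%, against 66.3%.

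Probe sets of 1 gene often gave different sizes. Of the 87 probe sets 6 were higher and 9 lower past the threshold (17.2%). Over all probe sets 5.57% were higher and 6.73% lower, 12.3% together. Only 4 of the 87 lay below the lower quartile of all probe sets, and no share among probe sets of like brightness was taken. The 51 that are not the brightest of their gene include 7 lower and none higher in limma (13.7% called). At an unadjusted p under 0.05 in limma they number 15. At their brightest probe set 5645 of 18193 genes lay under that cut, and the share of all probe sets was not taken. Of the 7 lower, 3 read Dnajc3. In 12 of the 26 genes with several probe sets the signs differed, but no gene had probe sets past the threshold in opposite directions. Hspa5, Hsp90b1, Dnajc3 and Atf4 passed only at a dimmer probe set, all lower in AKR F1. Canx and Edem2 passed among genes but not among probe sets, where more tests share the adjustment (0.051 and 0.059).

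**Figure D4:**
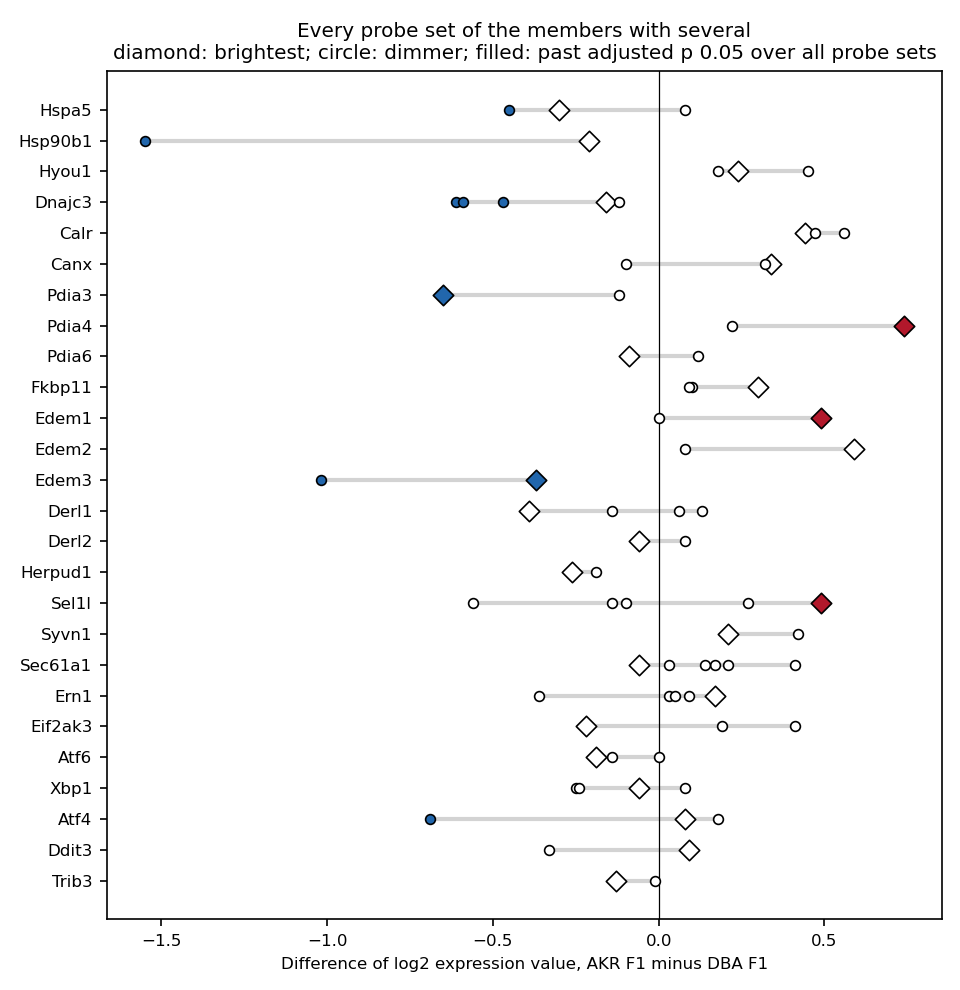
Difference of the log2 expression value, AKR F1 minus DBA F1, at every probe set of the 26 genes with several. Diamonds are the brightest probe set and circles the others, filled in red (higher) or blue (lower) where past the threshold over all probe sets, and grey lines span each gene. Hsp90b1 has the widest span, from -1.55 to -0.21, and Sel1l lies on both sides of 0.

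Other genes of the pathway, from lists that leave out the 36, also went both ways. Of 113 measured, 14 were higher, 6 lower and 93 did not pass (17.7%, against 15.2% of all genes), with a median of 0.01. In ER-associated degradation 5 of 24 were higher and none was lower (20.8% called). Man1b1, a mannosidase gene, was higher by 0.81 (SE 0.10) and H13, which encodes signal peptide peptidase, by 0.68. The lectin gene Os9 was higher by 0.52, Tmub1 by 0.39 and the ligase gene Rnf5 by 0.38. Among 29 genes of the translocon, signal peptidase and glycan transfer 3 were higher and 2 lower (17.2% called). Subunits of the oligosaccharyltransferase, which adds the glycan to entering chains, passed in both directions. Ddost was at 10.90, 10.64 and 10.82 in AKR F1 and 10.21, 10.11 and 9.77 in DBA F1, and it rose by 0.76. Dad1 rose by 0.59 and Rpn2 by 0.44, while Stt3b, a catalytic subunit, fell by 0.30 and the channel gene Sec61a2 fell by 0.57.

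Among 31 folding and disulfide enzymes 3 were higher and 3 lower (19.4% called). Creld1, a relative of Creld2, was higher by 0.56 (SE 0.09), Pdia2 by 0.64 and Fkbp2 by 0.32. Those lower were Tmx3 (-0.53), Selenof (-0.49) and the oxidase gene Ero1b (-0.40). Of 29 genes of the sensors and the ATF4 arm 3 were higher and 1 lower (13.8% called). Atf6b, the second ATF6 gene, was at 7.65, 7.62 and 7.61 against 7.10, 6.93 and 6.37 and differed by 0.83. Eif2ak1, the heme-regulated kinase that shares its target with PERK, was higher by 0.65 and Slc3a2, an amino acid transporter chain, by 0.46. Mbtps2, the protease that frees ATF6, differed by -0.36. Of these 20 genes Creld1, Man1b1, Ddost, Dad1 and Eif2ak1 passed whichever of the 6 arrays was left out, and Fkbp2, Ero1b, Stt3b and Mbtps2 in none.

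Fewer cells of a type and less RNA per cell cannot be told apart in whole marrow. The plasma cell markers had list means of 8.17 to 8.59 in AKR F1 and 8.50 to 8.74 in DBA F1, with 1 of 9 higher and 3 lower in AKR F1. The 1 higher, Tnfrsf17, had means of 4.26 and 3.82, near the lower quartile. Markers of granulocyte precursors were at 11.84 to 12.00 against 11.18 to 11.71, with 2 of 6 higher. Those of red cell precursors were at 10.99 in all 3 AKR F1 arrays against 10.58 to 10.80, with 4 of 9 higher. Monocyte and macrophage markers lay at 9.41 to 9.67 against 9.20 to 9.37, with 5 of 11 higher and 1 lower. T cell markers lay at 6.99 to 7.17 against 6.76 to 6.81, with 2 of 5 higher. Mature neutrophil markers overlapped, at 12.20 to 12.50 against 12.23 to 12.54, with 2 of 10 lower. B cell markers also overlapped, at 8.94 to 9.51 against 9.12 to 9.26, with 1 of 11 higher and 2 lower. Of all genes above the median probe set 13.4% were higher and 8.97% lower. The part of these shifts in the differences of the chaperone and stress genes was not tested.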

How the data were processed

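Total RNA from marrow was labelled with biotin and hybridised to Affymetrix arrays, per the labels' protocols. The authors deposited 1 table of log2 values for 45101 probe sets, with like distributions on all arrays. RMA and MAS5 are named, with no role, in the submitters' processing notes, and the sources used here do not say which of them gave these values. Tests left out 64 control probe sets. Symbols came from the platform annotation (1 symbol for 34945 probe sets, several for 932, none for 9160), and groups and replicate numbers from the sample titles.

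The test was limma 3.58.1 in R 4.3.3 (lmFit and eBayes, two-sided, Benjamini-Hochberg, 4 residual degrees of freedom) on the deposited values, over all 18193 genes at the brightest probe set by its mean over 6 arrays, and over all 45037 probe sets. The fit was tested on simulated data. The members, gene lists and tests were chosen with earlier results of these data known. Named were all members and, of each list of other pathway genes, up to 6 past the threshold. Full array values were given for members past the threshold at any probe set and for Hspa5, Hsp90b1, Xbp1, Atf4, Ddit3 and Mzb1. Promoters came from RefSeq.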

Additional observations from a re-analysis of the deposited data

How the results depend on the processing

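Of 539 differences of single genes under the alternatives, 491 moved by less than 1 SD, 47 moved by more and 1 turned the sign of a called gene, Sel1l, at -0.01 with the mean of its probe sets. The main count of 10 (8 higher, 2 lower) became 1, 1 and 0 with the 3' minus 5' index as a covariate and 0, 0 and 0 with the hybridization controls, where 21 and 1 of all genes passed against 2771, all in limma. It became 2, 2 and 0 at a threshold of 0.01 (526 of all genes), and at 0.1 the count lower became 4 (4243 of all genes). Array weights gave 4 lower, and averaging a gene's probe sets gave 4 higher and 4 lower. Leaving out 1 array in turn gave 2 to 10 in all, 2 to 8 higher, 0 to 2 lower, and 685 to 3248 of all genes. Quantile normalization, median centring, leaving out dim probe sets, and a variance trend with robust estimation gave 9 to 11 in all.

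No pairing by replicate number was seen: deviations from the group means correlated at 0.01, -0.06 and 0.07 between arrays of the same number. Between arrays of different number the correlations ran from -0.16 to 0.13. With 3 arrays in a group these values cannot exclude a pairing. With the replicate block 8 passed, 6 higher and 2 lower, and 7 of them were among the 10.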

Other observations

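The 10 genes past the threshold lie on 8 chromosomes, and the measured genes next to them in the order of GRCm38.p6, 2 on each side, are 40. Of these 40 genes 6 passed, where 15.2% of all genes did, and 3 of the 6 in the direction of the chaperone or stress gene they flank. The 4 neighbours of Sdf2l1 on chromosome 16, Ppil2, 2610318N02Rik, Ccdc116 and Ydjc, differed by 0.30, 0.12, 0.08 and 0.20, and none passed (adjusted p from 0.10 to 0.70 in limma). Ppp1r15a on chromosome 7 lies beside Nucb1, which was higher by 0.69, and near Hsd17b14, higher by 0.44. Near Edem3 on chromosome 1 Rnf2 was lower, at -0.51 (SE 0.08). Those that passed against the direction of their gene were Zbed4 near Creld2 (-0.36), Bhlhe40 beside Edem1 (-0.39) and Flrt2 beside Sel1l (-0.64).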
